A study of Mus musculus with 64 samples.

Results

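Tnnt2 (ENSMUSG00000026414) is the gene of cardiac troponin T, and it is also the gene that the transgene of this study carries. It was taken as 1 gene out of the 16913 measured, and followed in all 64 heart libraries and library by library within the transgenic groups. All mice were C57BL/6J, of either sex, and the tissue was heart; their age is not given in the sources used here. TG mice carried cTnT-delta160E, a cardiac troponin T transgene named for the loss of a glutamate (E) residue, and nTG mice carried no transgene. The labels do not name the promoter of the transgene, its copy number or its insertion site. Trained mice ran high-intensity intervals (HIIT) on a treadmill 3 times a week over 6 weeks, for 31 minutes each time, and sedentary mice did not exercise. The 31 TG libraries were of 9 sedentary and 8 trained males and of 8 sedentary and 6 trained females, and the 33 nTG libraries of 7 and 8 males and 8 and 10 females in the same order.

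Cardiac troponin T anchors the troponin complex to tropomyosin on the thin filament of the sarcomere. Its partners in the complex are troponin C (Tnnc1), which binds calcium, and troponin I (Tnni3), which holds the filament off until calcium binds; tropomyosin (Tpm1) and cardiac actin (Actc1) form the filament itself. Variants of troponin T are known as a cause of hypertrophic cardiomyopathy, in which the ventricular wall thickens and heart muscle is in part replaced by fibrous tissue. In adult mouse ventricle the main myosin heavy chain is Myh6, and Myh7, Acta1, Nppa, Nppb and Ankrd1 are known as genes that rise under cardiac stress.

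Tnnt2 lies on the plus strand at chr1:135836354-135852260 of GRCm38. The coding sequence of transcript Tnnt2-201 holds 3 runs of at least 4 glutamate codons. The last of them, at codons 163 to 166 in exon 9 (chr1:135849368-135849379), is the nearest to residue 160 and is shown with its flanks because the transgene is named for a lost glutamate; the capitals mark that run.
Tnnt2-201: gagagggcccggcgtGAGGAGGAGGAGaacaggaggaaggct
The same window occurred in all 10 complete coding transcripts of the annotation, which hold 3 or 4 such runs each, with this run starting between codon 163 and codon 177 according to the length of the upstream exons. Codon 160 fell inside this or any other run in 0 of the 10 and was a glutamate codon in 5, so the residue number of the label was not placed in the mouse sequence. The counts are per gene: RNA of the transgene and of the native gene is summed in them as far as the reads were assigned to Tnnt2, and cannot be told apart here.

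The column names of the gene table went against the labels. Read by name, 32 of 64 columns contradicted the labelled sex, 30 the labelled genotype (by Tnnt2) and 45 either of them. Each column of the lncRNA table, whose names match the library names of the labels, was therefore given the gene column with which it correlated best over 388 autosomal transcripts in both tables. All 64 pairs were best in both directions, with r from 0.598 to 0.863 across transcripts against at most 0.403 for the next best column, and 1 pair had the same name. Tnnt2 and the sex-linked genes took no part in the match, and with these joined columns 0 of 64 libraries contradicted sex or genotype. All values below use joined columns. Gene totals were 34.6 to 67.1 M (megacounts) per library, and Tnnt2 itself had 115579 to 717516 counts, which keeps its counting error at or below 0.294% of its value. Ventricular cardiomyocyte markers, as the tissue label calls for, took 5.09% to 6.61% of gene counts in every library. The labels number the libraries in separate runs for males and females, so that sex and library order cannot be told apart.

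Every TG library had more Tnnt2 RNA than every nTG library. TG libraries ranged from 6538 to 11721 CPM (counts scaled to the library size, with TMM factors) and nTG libraries from 2561 to 3589 CPM, and the lowest TG library held 1.82 times the highest nTG library. In the 9 sedentary TG males the values in rising order were 6538, 7344, 7642, 8037, 8249, 8690, 9019, 9097 and 9465 CPM. The 8 trained TG males had 6918, 8389, 8551, 9140, 9168, 9502, 9855 and 10297 CPM. In the 8 sedentary TG females Tnnt2 stood at 7810, 8289, 8885, 9625, 9893, 10009, 10338 and 10475 CPM. The 6 trained TG females had 8004, 8507, 8738, 9399, 9469 and 11721 CPM. The 4 TG groups overlapped widely with each other, and none of them overlapped with an nTG group.

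**Figure D1:**
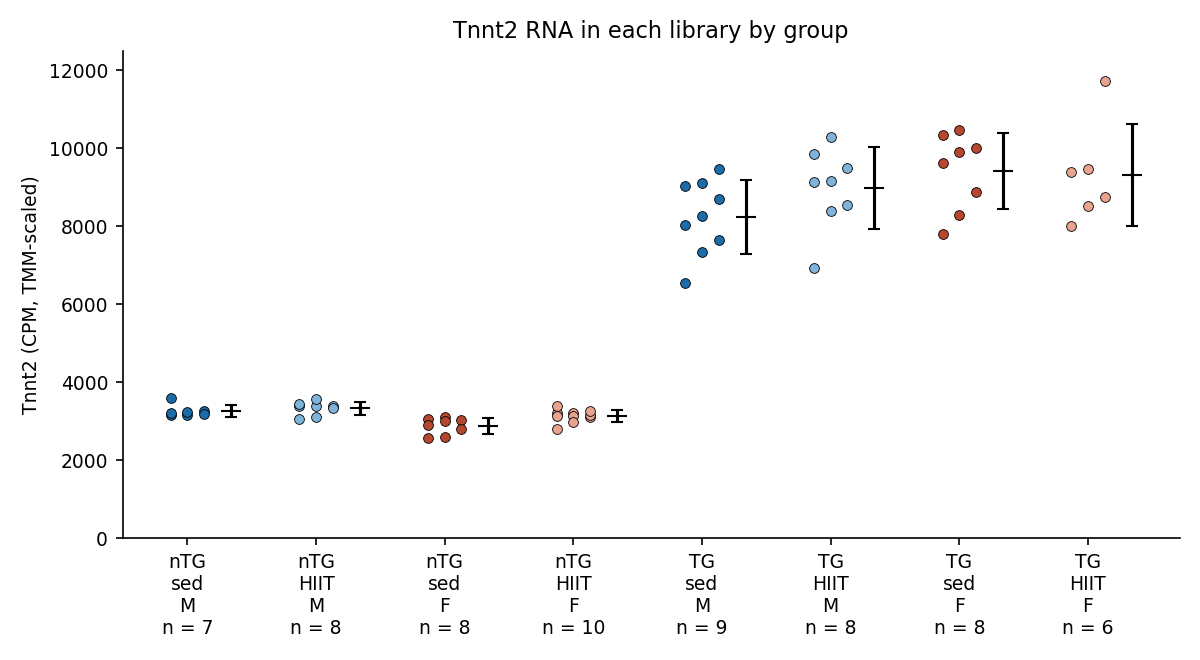
Tnnt2 in each of the 64 libraries (points, TMM-scaled CPM, linear axis from 0) by group, with the group mean and SD as a bar to the right of the points. The 31 TG libraries lie between 6538 and 11721 CPM and the 33 nTG libraries between 2561 and 3589 CPM.

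The nTG libraries were close together. Sedentary nTG males ranged from 3155 to 3589 CPM with a median of 3201, and trained nTG males from 3064 to 3557 with a median of 3381. Sedentary nTG females ranged from 2561 to 3117 CPM with a median of 2956, and trained nTG females from 2811 to 3390 with a median of 3149. The highest sedentary nTG male, at 3589 CPM, stood apart from the other 6, which reached 3252 CPM.

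The rise over nTG mice was 2.53-fold in sedentary males (8231 ± 945 against 3254 ± 152 CPM, mean ± SD, n = 9 and 7) and 2.69-fold in trained males (8978 ± 1043 against 3332 ± 163 CPM, n = 8 and 8). It was 3.27-fold in sedentary females (9416 ± 980 against 2879 ± 214 CPM, n = 8 and 8) and 2.97-fold in trained females (9306 ± 1305 against 3138 ± 159 CPM, n = 6 and 10). In edgeR the log2 fold changes were 1.34 ± 0.07 (SE, adjusted p 5.52e-24), 1.43 ± 0.07 (4.42e-26), 1.71 ± 0.07 (3.29e-30) and 1.57 ± 0.07 (1.63e-28) in the same order. Tnnt2 had the smallest p of the 16913 genes in each of these comparisons, in which 20.6%, 14.0%, 4.37% and 14.8% of all genes passed the threshold (edgeR, adjusted p under 0.05). The share of all gene counts taken by Tnnt2 was 0.295% to 0.318% on average in the nTG groups and 0.840% to 0.964% in the TG groups.

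Other thin filament genes did not rise with Tnnt2. Tpm1 was lower in TG mice in all 4 comparisons, with log2 differences among males of -0.29 ± 0.04 (SE, edgeR adjusted p 1.21e-06) for sedentary and -0.28 ± 0.04 (4.97e-06) for trained mice, and among females of -0.20 ± 0.04 (0.00124) and -0.23 ± 0.04 (0.000143). Tnnc1 was also lower in all 4, by -0.18 ± 0.04, -0.18 ± 0.04, -0.14 ± 0.04 and -0.19 ± 0.04, with adjusted p from 0.00135 to 0.0459. Tnni3 fell by 0.20 ± 0.06 in sedentary males (adjusted p 0.00932) and differed by -0.04, 0.00 and -0.09 in the other comparisons without passing. Actc1 fell in trained males (-0.19 ± 0.06, adjusted p 0.0181) and trained females (-0.16 ± 0.06, 0.0469). Tnnt1, the slow skeletal troponin T, stood at 3.64 to 5.02 CPM on average in every group and passed in none of the 4 comparisons. Lad1, a gene of a basement membrane-associated protein that lies upstream of Tnnt2 on the same strand, did not pass either. Tnnt3, the fast skeletal troponin T, was not analysed here.

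Ordered by mean log2 CPM, Tnnt2 rose from sedentary nTG females through trained nTG females, sedentary nTG males and trained nTG males to sedentary TG males, trained TG males, trained TG females and sedentary TG females. Between neighbours in this order, the step from trained nTG males to sedentary TG males passed (1.3 ± 0.07 on the log2 scale, SE, edgeR adjusted p 1.79e-24), and the other 6 steps, of 0.02 to 0.13, did not.

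Training did not move Tnnt2 past the threshold of edgeR over all genes in any of 4 comparisons. In TG males the trained minus sedentary difference was 0.13 ± 0.06 on the log2 scale (SE, edgeR adjusted p 0.164), where 18.0% of all genes passed. Without the trained TG male of replicate 4, which had the lowest Tnnt2 of its group, the same difference was 0.16 and passed (adjusted p 0.0434). In TG females it was -0.02 ± 0.07 (adjusted p 1.00, 0.0% of genes called by edgeR and 606 genes at an unadjusted p under 0.05). In nTG males the difference was 0.03 ± 0.07 (adjusted p 0.983; 0.0% called, with 999 genes under 0.05 before adjustment). For nTG females the difference was 0.12 ± 0.06 (adjusted p 0.352, 0.148% called), and an exact two-sided permutation test of the group labels on that gene alone gave p 0.0115, or 0.0229 adjusted over the 12 comparisons of 2 groups. The genotype effect did not differ with training past the threshold: the interaction was 0.09 ± 0.09 in males (adjusted p 0.689) and -0.14 ± 0.09 in females (0.826), with 0.0% of genes called in either.

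Sedentary and trained nTG females had less Tnnt2 than nTG males, and sedentary TG females had more than sedentary TG males, in an exact test of Tnnt2 alone but not in edgeR after adjustment over all genes. Among sedentary nTG mice the female minus male difference was -0.18 ± 0.07 on the log2 scale (SE, edgeR adjusted p 0.165, 2.22% of genes called; exact permutation p 0.000311, 0.000746 over the 12 comparisons). Among trained nTG mice it was -0.09 ± 0.06 (edgeR adjusted p 0.525, 2.4% called; exact permutation p 0.0208, 0.0357 over the 12). Among sedentary TG mice it was 0.19 ± 0.06 (edgeR adjusted p 0.0704, 3.83% called; exact permutation p 0.0266, 0.0399 over the 12). That difference passed over all genes with DESeq2 (0.19, adjusted p 0.0447) and in edgeR without 1 of 4 libraries, the sedentary TG males of replicates 7 and 8 and the sedentary TG females of replicates 1 and 2 (adjusted p 0.0262 to 0.0431). For trained TG mice the values were 0.05 ± 0.07 (edgeR adjusted p 0.748, 2.29% called; exact permutation p 0.629). The genotype effect in sedentary mice was larger in females than in males by 0.37 ± 0.09 (SE), with an unadjusted edgeR p of 0.000177 that ranked 7 of 16913 genes and an adjusted p of 0.377; 0.0% of genes were called for this interaction, and 1471 had an unadjusted p under 0.05. In trained mice the same difference was 0.14 ± 0.09 (adjusted p 0.910, 0.0% called).

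Set against its thin filament partners in the same library, the sex difference passed in sedentary TG mice and not in the other groups. The log2 ratio of Tnnt2 to the mean of Tnni3, Tnnc1, Tpm1 and Actc1 was higher in sedentary TG females than in sedentary TG males by 0.22 (exact permutation p 0.00543, 0.0130 adjusted over 12 comparisons). In trained TG mice the sex difference of the ratio was 0.11 (exact permutation p 0.212). Between sedentary nTG females and males it differed by -0.07 (exact permutation p 0.224), between trained nTG females and males by -0.03 (p 0.514), and between trained and sedentary nTG females by 0.05 (p 0.293). The ratio lay between 1.17 and 1.84 in the TG libraries and between -0.37 and 0.06 in the nTG libraries. Since Tpm1 and Tnnc1 were themselves lower in TG mice, the ratio put the genotype effect higher than CPM did, at 1.51 and 1.60 for sedentary and trained males and at 1.80 and 1.73 for sedentary and trained females.

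Tnnt2 varied more between TG mice of a group than between nTG mice of a group. About the group means, the SD of log2 CPM was 0.173 over the 31 TG libraries and 0.082 over the 33 nTG libraries, a ratio of 2.11 (two-sided permutation test of the absolute deviations, p 0.00145). The coefficient of variation was 11.5% in sedentary and 11.6% in trained TG males, 10.4% in sedentary and 14.0% in trained TG females, against 4.67%, 4.88%, 7.45% and 5.06% in the nTG groups in the same order. Leaving out each library in turn gave ratios from 1.93 to 2.26. On the ratio to thin filament partners, the SD was 0.145 in TG and 0.089 in nTG libraries, a ratio of 1.63 (permutation p 0.0206).

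**Figure D2:**
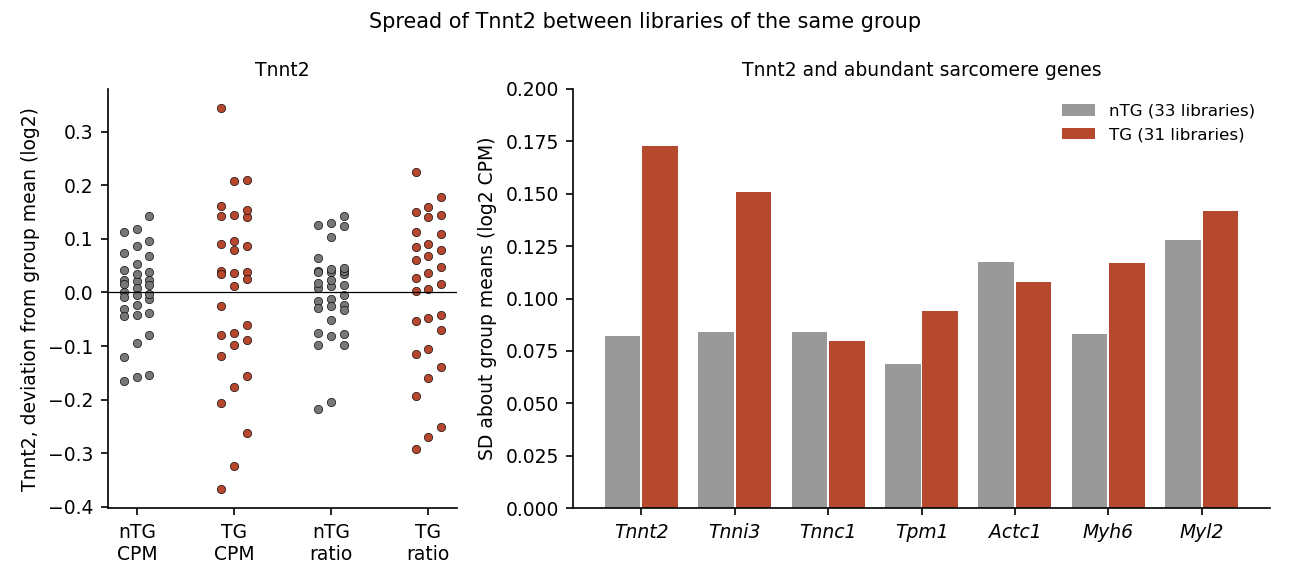
Left, deviation of each library from its group mean for Tnnt2 as log2 CPM and as log2 ratio to Tnni3, Tnnc1, Tpm1 and Actc1 (points, 33 nTG and 31 TG libraries). Right, SD about the group means (log2 CPM, bars from 0) of Tnnt2 and of 6 other sarcomere genes. The Tnnt2 bar is 0.173 in TG and 0.082 in nTG libraries.

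Expressed as CPM above the mean of the nTG group of the same sex and training, the surplus of single TG libraries ran from 3284 to 8583, a 2.61-fold range. Within TG groups 52.0% of all genes had a larger SD than Tnnt2. Among the 82 genes with a mean of at least 1000 CPM, 16 had a larger SD. The median SD of those 82 in TG libraries was 0.119, against 0.173 for Tnnt2. Within nTG groups 90.4% of all genes and 59 of those 82 had a larger SD than Tnnt2. Of the other sarcomere genes, Tnni3 had an SD of 0.151 in TG and 0.084 in nTG libraries, Myh6 0.117 and 0.083, and Tpm1 0.094 and 0.069. Tnnc1 had 0.080 and 0.084, Actc1 0.108 and 0.118, and Myl2, the ventricular regulatory light chain, 0.142 and 0.128. The differences between TG and nTG SDs of these 6 genes were not tested.

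The next question was whether TG mice with more Tnnt2 RNA than others of their group differed in other genes. A slope was fitted for each gene on log2 CPM of Tnnt2 within the 4 TG groups: a slope of 1 means that the gene doubles where Tnnt2 doubles. Of 16912 genes, 649 passed (3.84%, edgeR adjusted p under 0.05), 268 with a positive slope (1.58%) and 381 with a negative slope (2.25%). Over all genes the median slope was 0.02 and 52.4% of slopes were positive. This count leaned on a few libraries. Without the trained TG male of replicate 4, which had the lowest Tnnt2 of its group, 54 genes passed, 20 of them positive and 34 negative. Leaving out the sedentary TG male of replicate 5, also the lowest of its group, left 248; the trained TG female of replicate 3, the sedentary TG males of replicates 7 and 8 and the trained TG male of replicate 3 left 359, 345, 388 and 423. The other 25 single libraries left counts within 1.5 times of 649. Tested by permutation of the residuals within groups, r passed in 379 genes, 361 of them among the 649, and rho in 25. In 39 genes the edgeR call held in all 31 fits that left out 1 library.

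Those 2 libraries stood apart in other ways. In the trained TG male of replicate 4, Tnnt2 was at 6918 CPM and 9 fibroblast markers together took 0.374% of gene counts, against 0.200% to 0.268% in the other 7 trained TG males. It was also highest of its group in atrial markers (0.0776% against at most 0.0263%), skeletal muscle markers (0.0181% against at most 0.0095%) and macrophage markers (0.0414% against at most 0.0282%). In the sedentary TG male of replicate 5, Tnnt2 was at 6538 CPM and 8 blood cell markers took 0.492% of counts, against 0.031% to 0.118% in the other 8. Slopes within TG groups are therefore given over all 31 libraries and, for named genes and lists that passed, also without the trained TG male of replicate 4.

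Among the genes that went up with Tnnt2, the 8 with the smallest p kept their call whichever library was left out. Trim7, a ubiquitin ligase that binds glycogenin, had the smallest p. Its slope was 0.79 ± 0.11 (SE, edgeR adjusted p 0.00088; 0.78 and 0.0146 without that library), and its level ran from 21.5 to 39.4 CPM over the TG libraries. The correlation of its deviations with those of Tnnt2 was r = 0.81 and rho = 0.74 over 31 libraries (permutation within groups, adjusted p 0.0135 and 0.0282 over all genes), and r = 0.71 without the 2 libraries with Tnnt2 farthest from their group median. Letm1, an ion exchanger of the inner mitochondrial membrane, had a slope of 0.52 ± 0.08 (adjusted p 0.000923; 0.50 and 0.0247), with r = 0.83 and rho = 0.75 (permutation adjusted p 0.0121 and 0.0282). Within each TG group r was positive for these genes, from 0.57 to 0.97 for Trim7 and from 0.54 to 0.96 for Letm1.

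Mhrt had a slope of 0.93 ± 0.15 (SE, edgeR adjusted p 0.00186; 0.84 and 0.0251 without the trained TG male of replicate 4). This antisense lncRNA lies between Myh6 and Myh7 and overlaps Myh7, and since the counting is not stated to use strand, its reads and those of Myh7 cannot be told apart in the overlap; Myh7 itself had a slope of the opposite sign. The other named genes that went up were Mrm3, a methyltransferase of mitochondrial ribosomal RNA (0.74 ± 0.13), Fkbp4, a co-chaperone of Hsp90 (0.57 ± 0.10), Agpat5, an acyltransferase of phospholipid synthesis (0.61 ± 0.11), Kptn, a part of the KICSTOR complex that acts on mTORC1 (0.64 ± 0.11), and Hsd17b4, an enzyme of peroxisomal beta-oxidation (0.41 ± 0.07). Their adjusted p was 0.00186 to 0.00293 over all 31 libraries and 0.0251 to 0.0349 without the trained TG male of replicate 4. By rho, Mhrt and Fkbp4 did not pass (permutation adjusted p 0.0523 and 0.0538).

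The 8 genes with the smallest p among those that went down as Tnnt2 went up also kept their call whichever library was left out. Dcn, which encodes the matrix proteoglycan decorin and is 1 of the 9 fibroblast markers, had a slope of -0.86 ± 0.14 (SE, edgeR adjusted p 0.00186; -0.78 and 0.0349 without the trained TG male of replicate 4). It ranged from 229 to 433 CPM over the TG libraries, and its r was -0.74 and its rho -0.71 (permutation adjusted p 0.0121 and 0.0282), with r from -0.84 to -0.54 within the 4 groups. Fbln2 and Fbln7, matrix proteins of the fibulin family, had slopes of -1.20 ± 0.20 and -3.14 ± 0.53, the latter at 0.492 to 5.21 CPM. Svep1, another matrix protein, had -1.79 ± 0.27. Apod, the lipid carrier apolipoprotein D, had -2.08 ± 0.31, Serping1, the inhibitor of complement C1, -1.18 ± 0.20, Ahnak2 -1.30 ± 0.22, and Fetub, a protein of the fetuin family, -2.34 ± 0.39. All 8 passed with adjusted p of at most 0.00186, and between 0.0247 and 0.0349 without the trained TG male of replicate 4. By rho only Dcn of these 8 passed, and the others had permutation adjusted p from 0.0501 to 0.131.

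**Figure D3:**
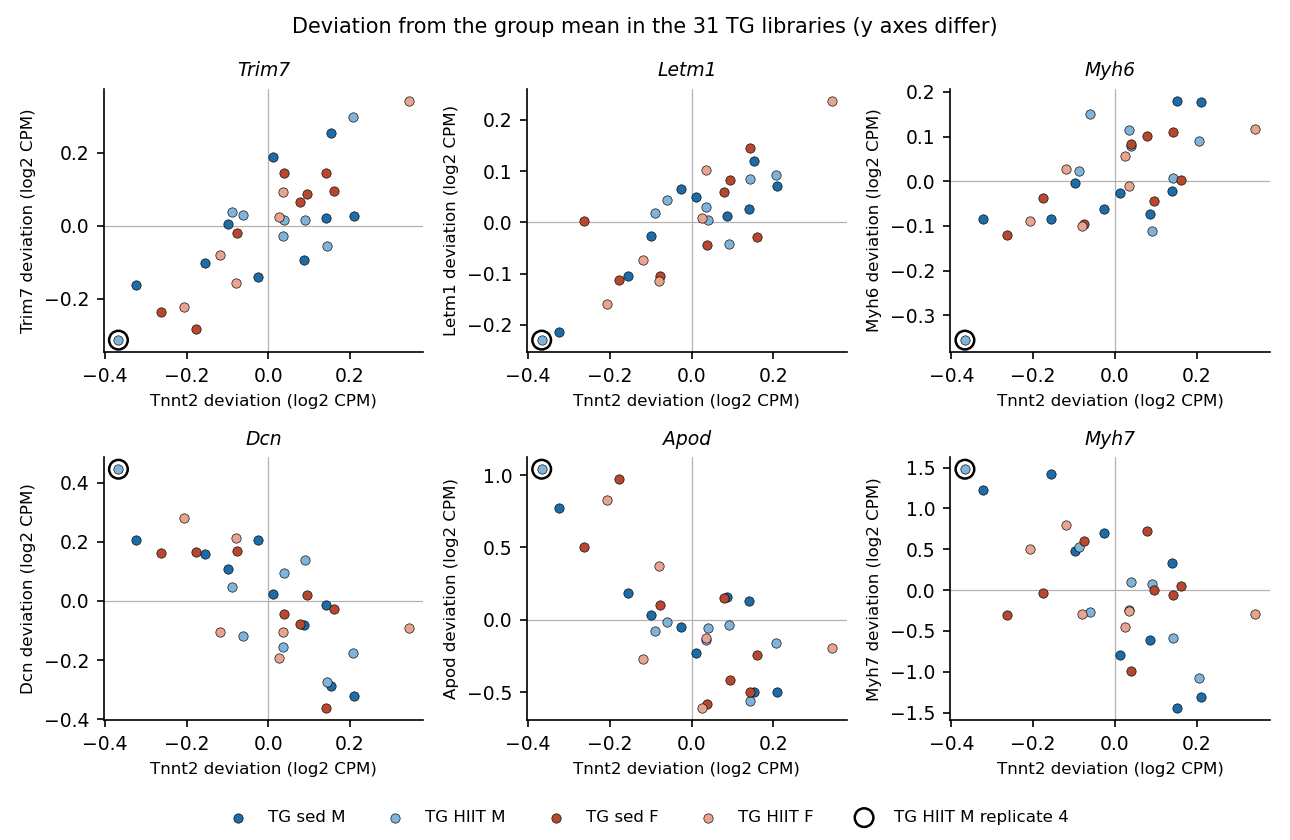
Deviation from the group mean (log2 CPM) of 6 genes against that of Tnnt2 in the 31 TG libraries, coloured by group, with the trained TG male of replicate 4 ringed; the y axes differ. Trim7 and Letm1 rise with Tnnt2 (r = 0.81 and 0.83), Dcn and Apod fall (r = -0.74 and -0.75), and the ringed library lies at the end of every panel.

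Of the thin filament partners, Tnni3 went up with Tnnt2, with a slope of 0.54 ± 0.13 (SE, edgeR adjusted p 0.0174). Without the trained TG male of replicate 4, in which Tnni3 was at 1953 CPM against 2607 to 3127 in the other trained TG males, its slope was 0.38 (adjusted p 0.208). The slopes of Tnnc1 (0.14 ± 0.09), Tpm1 (0.09 ± 0.11), Actc1 (0.08 ± 0.12) and Tnnt1 (-0.15 ± 0.23) did not pass, with adjusted p from 0.468 to 0.810. In the thin filament list as a whole, 1 of 13 measured genes passed, where 3.84% of all genes did, and the median slope was 0.14, against 0.02 over all genes. Among nTG libraries, 2 of the 13 passed, where 0.745% of all genes did (126, and 0 without the sedentary nTG female of replicate 1): Tnni3 (0.69 ± 0.16, adjusted p 0.0286) and Nebl, a nebulin-related protein of the Z-disc.

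In the thick filament, 4 of 10 measured genes passed, 2 in each direction, beside 1.58% of all genes with a positive and 2.25% with a negative slope. Myh6, the main adult ventricular myosin, went up (0.45 ± 0.10, SE, edgeR adjusted p 0.014; 0.34 and 0.161 without the trained TG male of replicate 4), and so did Myh7b (0.90 ± 0.19, adjusted p 0.00727; 0.80 and 0.0849). Myh7 went down (-2.83 ± 0.59, adjusted p 0.00727; -2.53 and 0.104), and its level ran from 337 to 3844 CPM over the TG libraries. Myom3, an M-band protein, went down as well (-1.04 ± 0.23, adjusted p 0.00961). With that library left out, 0 of the 10 passed.

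All 11 measured genes of the hypertrophic stress list had negative slopes, with a median of -0.91, and 3 of them passed (over all genes 2.25% passed with a negative slope and 52.4% of slopes were positive). In nTG libraries 8 of the 11 were negative, with a median of -0.78, and 2 passed, where 0.378% of all genes passed with a negative slope and 0 genes did without the sedentary nTG female of replicate 1. Ankrd1, a muscle ankyrin repeat protein, had a slope of -1.60 ± 0.32 (SE, edgeR adjusted p 0.00563), Ccn2, a matricellular growth factor, -1.67 ± 0.30 (0.00217), and Fhl1 -0.47 ± 0.13 (0.033). The natriuretic peptide genes Nppa (-2.06 ± 0.77, adjusted p 0.13) and Nppb (-0.91 ± 0.51, 0.367) and skeletal actin, Acta1 (-1.16 ± 0.66, 0.375), did not pass. Without the trained TG male of replicate 4 the median slope of the list was -0.41 and Ccn2 alone passed; the slope of Nppa was then -0.66, that of Acta1 -0.18 and that of Ankrd1 -1.21 (adjusted p 0.13).

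Calcium handling and energy metabolism genes had positive slopes throughout. Of all genes, 52.4% had a positive slope and 1.58% passed with a positive slope. In the calcium handling list 12 of 12 slopes were positive, with a median of 0.22, and 2 passed: Hrc, a calcium-binding protein of the sarcoplasmic reticulum (0.65 ± 0.12, SE, edgeR adjusted p 0.00319), and Atp2a2, the calcium pump SERCA2 (0.47 ± 0.12, 0.032). Leaving out the trained TG male of replicate 4, the median was 0.15 and Hrc passed. In the energy metabolism list 12 of 12 were positive, with a median of 0.35, and 5 passed: Cpt1b, Cpt2, Acadm and Hadha, which act in fatty acid import and beta-oxidation in mitochondria, and Ckm, muscle creatine kinase, with slopes of 0.33 to 0.54. Without that library the median was 0.26 and 0 of the 12 passed. In nTG libraries 10 of the 12 calcium handling slopes were positive (median 0.37, 0 passed) and 11 of the 12 in energy metabolism (median 0.39, 2 passed), where 0.367% of all genes passed with a positive slope and 0 genes passed without the sedentary nTG female of replicate 1. Of the cardiac transcription factors 0 of 12 passed, of the splicing regulators 0 of 10, and of the protein quality control genes 1 of 14, the myosin chaperone Unc45b (0.38 ± 0.10, edgeR adjusted p 0.0332; 0.26 and 0.319 without the trained TG male of replicate 4). Without the sedentary TG male of replicate 5, 1 calcium handling gene, 0 energy metabolism genes and 0 protein quality control genes passed, in a fit that called 248 of 16912 genes.

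The fibrosis list had 12 of 12 negative slopes, with a median of -1.19, and 7 passed, beside 2.25% of all genes with a negative slope. Its members that passed were Lox, which crosslinks collagen, Fn1 (fibronectin), Col8a1, Col1a2, Postn (periostin), Tgfb2 and Timp1, with slopes from -1.04 to -2.38. The median was -0.86, and 0 passed, once the trained TG male of replicate 4 was left out. Among nTG libraries all 12 slopes were negative too, with a median of -1.86, and 4 passed, beside 0.378% of all genes. Those nTG calls rested on few libraries, as 0 genes passed without the sedentary nTG female of replicate 1.

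Markers of other cell types moved with Tnnt2 within TG groups, where 3.84% of all genes passed. Of 9 fibroblast markers, 4 passed, all negative (Dcn, Lum, Col1a2 and Mfap5, median slope of the list -0.95), of 8 macrophage markers 5 (Csf1r, C1qa, C1qb, C1qc and Mrc1, median -0.87), of 8 blood cell markers 7 (among them Hba-a1, Hbb-bs, Alas2 and Slc4a1, median -2.86) and of 9 endothelial markers 1 (Vwf). Of 8 ventricular cardiomyocyte markers 2 passed, both positive (Myh6 and Tnni3, median 0.23), and of 7 atrial markers 0, all 7 with negative slopes. No smooth muscle or adipocyte marker passed, 0 of 7 and 0 of 3, and 1 of 4 skeletal muscle markers did (Mybpc2). Without the trained TG male of replicate 4, the 7 blood cell markers and 1 fibroblast marker (Dcn) passed and none of the others (54 of all 16912 genes). Without the sedentary TG male of replicate 5, which had the highest blood cell share, 0 of the 8 blood cell markers passed and their median slope was -1.24, while 3 fibroblast, 1 macrophage, 0 endothelial, 2 ventricular and 1 skeletal muscle markers passed (248 of all 16912 genes). In nTG libraries 3 fibroblast markers passed (median slope -0.77), 0 macrophage markers (8 of 8 negative, median -0.84), 0 blood cell markers (7 of 8 negative, median -0.64) and 1 ventricular marker (median 0.55), where 0.745% of all genes passed. These nTG calls were lost without the sedentary nTG female of replicate 1, where 0 genes passed. In bulk tissue, fewer cells of a type and less RNA per cell cannot be told apart.

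**Figure D4:**
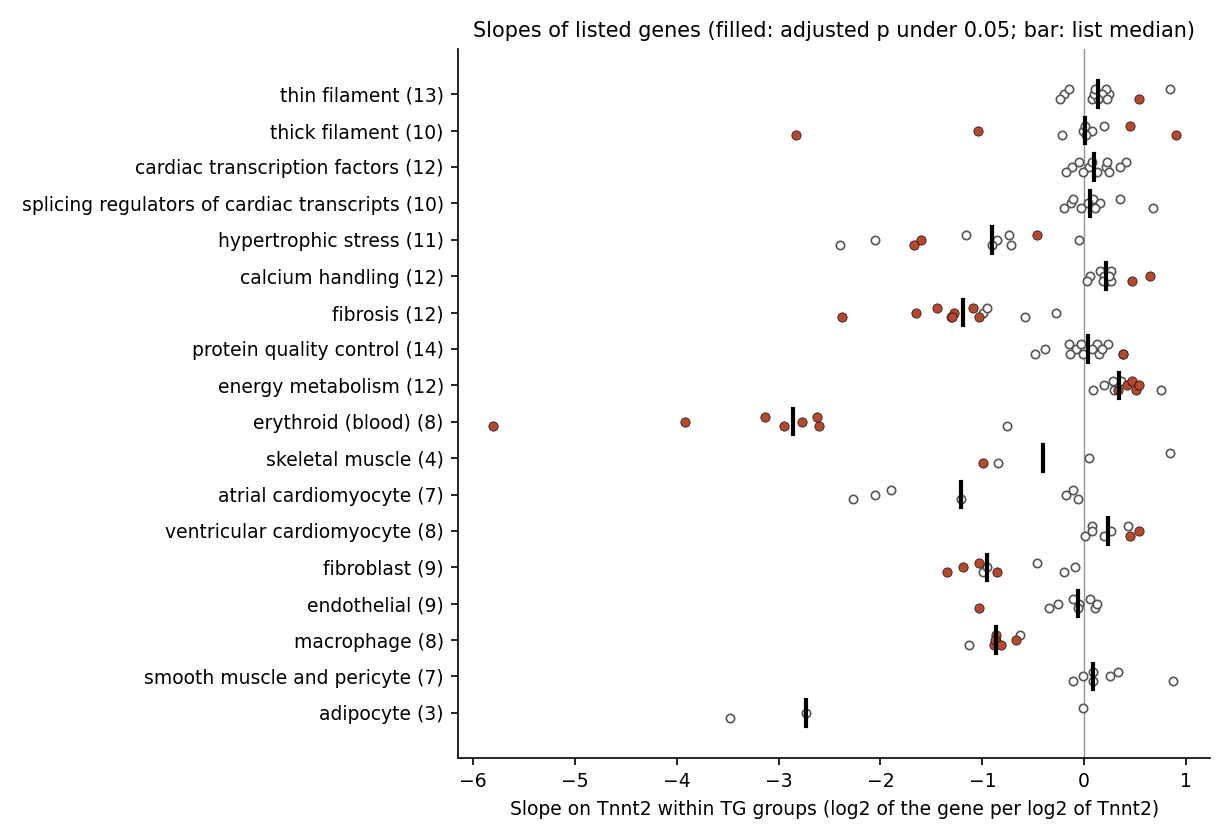
Slope on Tnnt2 within TG groups (log2 of the gene per log2 of Tnnt2) for each measured gene of 9 pathway and 9 marker lists, with the number of genes in parentheses; filled points passed the threshold and bars mark list medians. The medians run from -2.86 for blood cell markers to 0.35 for energy metabolism genes.

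Summed as shares of gene counts, the same markers gave 5 relations with Tnnt2 that passed among 12 library measures tested in the 31 TG libraries. The share of ventricular markers went up with Tnnt2 (r = 0.69, rho = 0.62, permutation within groups, adjusted p 0.00096 and 0.00444, r = 0.54 without the 2 farthest libraries, and r from 0.65 to 0.77 within groups). In trained males it was 0.65 with and -0.04 without replicate 4. The share of macrophage markers went down (r = -0.61, rho = -0.53, adjusted p 0.00432 and 0.022, r = -0.48 without the 2 farthest), and so did that of blood cell markers (r = -0.52, rho = -0.44, adjusted p 0.00856 and 0.0436, r = -0.63 without them). For blood cell markers r was -0.82 in sedentary females, -0.74 in sedentary males, -0.31 in trained females and 0.05 in trained males. Without the sedentary TG male of replicate 5 it was -0.32 in sedentary males and -0.38 over the 30 remaining libraries. The skeletal muscle share had r = -0.53 and rho = -0.46 (permutation adjusted p 0.0144 and 0.0436), and the fibroblast share r = -0.49 (0.0164) but rho = -0.38 (0.102). The last 2 had r of -0.36 and -0.37 without the 2 farthest libraries. Within groups, each of 6 to 9 libraries, the fibroblast share had r of -0.67 in sedentary and -0.74 in trained males and of -0.11 and -0.27 in sedentary and trained females, and a difference between groups was not tested. The r of the trained males was -0.17 without replicate 4. In trained males the macrophage share had r of -0.77 with and -0.08 without that library. The skeletal muscle share had -0.81 and -0.22. The mitochondrially encoded share (r = 0.36, permutation adjusted p 0.0958) and the library total (r = -0.09, 0.666) did not pass.

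The ranges of these shares show their size. Fibroblast markers took 0.200% to 0.374% of counts in TG and 0.158% to 0.342% in nTG libraries, macrophage markers 0.020% to 0.041% and 0.015% to 0.033%, blood cell markers 0.026% to 0.492% and 0.044% to 0.111%, and ventricular markers 5.09% to 6.23% and 5.49% to 6.61%. The 4 measured of 12 listed skeletal muscle markers took 0.0067% to 0.0181% in TG and 0.0025% to 0.0057% in nTG libraries, with no overlap. These markers include Myl1, which by itself did not overlap (25.0 to 83.7 CPM in TG and 5.42 to 22.7 in nTG libraries). In nTG libraries Tnnt2 went up with the ventricular share as well (r = 0.56, rho = 0.61, permutation adjusted p 0.0134 and 0.00468). It went down with the skeletal muscle share by r (-0.55, adjusted p 0.0134) but not by rho (-0.36, 0.295), and the fibroblast share gave r = -0.16 (adjusted p 0.706). List members not analysed here included Bmp10 of the atrial list, Ahsp of the blood cell list, Myh1, Myh2 and Myh4 of the skeletal muscle list and the 5 lung markers.

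With the log2 fibroblast share as a covariate, 5 genes passed in place of 649, 3 of them among the 16 named genes: Trim7, Letm1 and Svep1. With the blood cell share 23 genes passed, and with the mitochondrially encoded share 84. When the ratio of Tnnt2 to its thin filament partners took the place of its CPM, 101 genes passed. Of the 8 named genes that went up, Trim7 kept 99.8% of its slope with the fibroblast share as a covariate, Letm1 95.8% and the other 6 kept 79.4% to 93.4%, with adjusted p of 0.0654 to 0.102 for those 6. Apod kept 85.6% of its slope (-1.78, adjusted p 0.0518), and the other 7 that went down kept 58.1% to 66.5%. Dcn is itself 1 of the 9 markers summed in that share. The slope of Myh6 was 0.24 (adjusted p 0.368) in place of 0.45. The part of these marker shares in the slopes was not tested further.

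**Figure D5:**
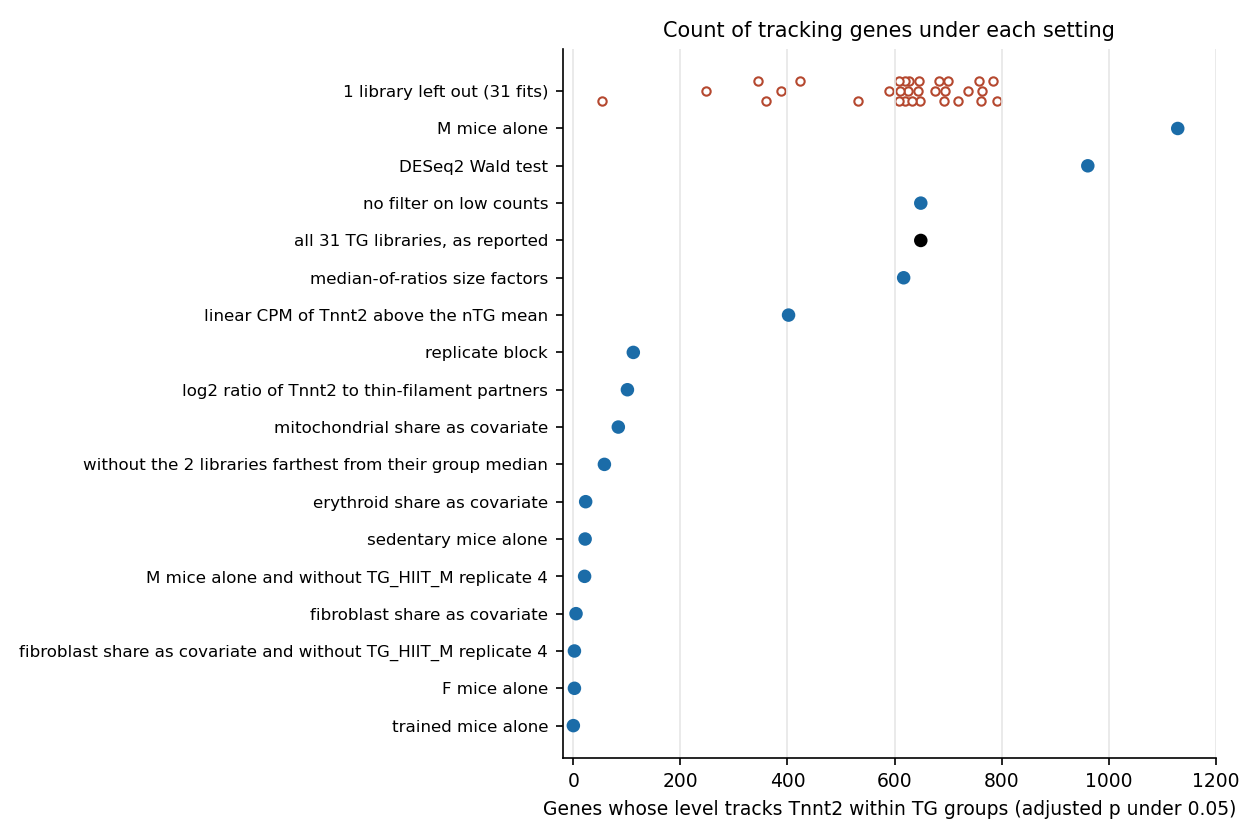
Number of genes that passed for a slope on Tnnt2 within TG groups (edgeR or DESeq2, adjusted p under 0.05) under each setting; open points are the 31 fits that left out 1 library. The count of 649 falls to 54 without 1 trained TG male and to 5 with the fibroblast share as a covariate.

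The relation was also taken apart by sex and training. In TG males alone 1129 genes passed, in TG females alone 2, in sedentary TG mice 22 and in trained TG mice 0 (edgeR, with 2175 genes at an unadjusted p under 0.05). The count in males was 21 without the trained TG male of replicate 4. Tested directly, the slope differed between TG females and males in 0 of 16912 genes, and between trained and sedentary TG mice in 0 (edgeR, 1397 and 393 genes at an unadjusted p under 0.05). Myh7 and Ankrd1 had r of -0.82 and -0.78 in sedentary TG males, -0.92 and -0.90 in trained TG males, 0.10 and 0.06 in sedentary TG females and -0.60 and -0.48 in the trained TG females.

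Slopes on native Tnnt2 were fitted in the same way. Within the 33 nTG libraries 126 genes passed (0.745%), 62 with a positive (0.367%) and 64 with a negative slope (0.378%). Set beside the TG libraries, this is below the count of 649 over all 31 and above the count of 54 without the trained TG male of replicate 4, and the difference in counts was not tested. The nTG count itself rested on few libraries: it was 0 without the sedentary nTG female of replicate 1 (edgeR, 1913 genes at an unadjusted p under 0.05), 5 without that of replicate 4, and 53 to 244 without any other single nTG library. The slope differed between TG and nTG libraries in 7 genes (0.0414%), 5 of them with a higher (0.0296%) and 2 with a lower slope in TG (0.0118%). With the trained TG male of replicate 4 left out, 19 genes passed, these 7 among them with adjusted p of at most 0.0328. The calls were not stable to the choice of nTG libraries. Among 33 fits that left out 1 nTG library, Trim7, Hr and Fmo2 kept their call in 30, Apln in 27, Prnd in 15, Papln in 13 and Corin in 10. Every one of the 7 calls was lost without any 1 of 3 females, the sedentary ones of replicates 1 and 4 and the trained one of replicate 2, which of all nTG libraries had Tnnt2 farthest below the mean of their group. Each of these 3 fits called 0 genes (edgeR, 1238 to 1517 genes at an unadjusted p under 0.05), leaving out all 3 left 0 (880 at an unadjusted p under 0.05), and the other 30 single nTG libraries left 3 to 19. For Trim7 the slope was 0.79 in TG and -1.45 in nTG libraries, a difference of 2.25 ± 0.41 (SE, edgeR adjusted p 0.0125). Trim7 was at 44.6 to 50.4 CPM in those 3 females and at 23.8 to 36.3 CPM in the other 30 nTG libraries, and without the 3 its nTG slope was 0.41 and the difference 0.38 (adjusted p 0.965). Apln, the peptide hormone apelin, had 0.97 and -1.99 (difference 2.96 ± 0.58, adjusted p 0.0156), Hr, a nuclear receptor corepressor, 0.56 and -2.31 (2.87 ± 0.55, 0.0156), and Prnd, a prion-like protein, 0.74 and -3.68 (4.42 ± 0.94, 0.0477). Fmo2, a flavin monooxygenase, had -0.91 in TG and 1.45 in nTG libraries (-2.36 ± 0.46, adjusted p 0.0156), and Corin, the protease that processes atrial natriuretic peptide, -0.14 and 1.5 (-1.64 ± 0.35, 0.0477). Without the 3 females the difference was 1.28 for Hr, 2.67 for Apln, 4.42 for Prnd, -2.11 for Fmo2 and -1.66 for Corin, with adjusted p of at least 0.687. The remaining gene, Papln, falls outside the naming rule and is named because the count is small (0.03 and -2.20, adjusted p 0.0499). Tnnt2 spread over a narrower range in nTG libraries. The SE of the slopes of named genes was larger there, for example 0.44 against 0.11 for Trim7, and the reason was not tested. For the other 15 named genes the slopes of TG and nTG libraries did not differ past the threshold, nor did those of Tnni3, Myh6, Myh7 and Ankrd1.

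Among 985 lncRNAs of the other table, 0 tracked Tnnt2 within TG groups (0.0%, edgeR, 56 at an unadjusted p under 0.05; DESeq2 called 1). The 3 with the smallest p were Prr33 (slope 0.99 ± 0.24, SE, edgeR adjusted p 0.106, r = 0.67), Gm12840 (-1.36 ± 0.38, 0.305) and 2310039L15Rik (2.00 ± 0.59, 0.383).

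Complete separation of TG from nTG libraries was rare. Tnnt2 was 1 of 9 genes (0.0532% of 16913) whose 31 TG libraries did not overlap with the 33 nTG libraries, 7 higher in TG (0.0414%) and 2 lower (0.0118%). The gap between the groups was 0.87 log2 units for Tnnt2 and at most 0.33 for the other 8. Higher in TG were Epdr1, an ependymin-related lysosomal protein (25.3 to 35.9 CPM against 14.3 to 22.4 in nTG), Mafg, a small Maf transcription factor (62.0 to 93.4 against 42.4 to 56.3), Myl1, a fast skeletal myosin light chain (25.0 to 83.7 against 5.42 to 22.7), Gcnt1, a glycosyltransferase (5.03 to 10.2 against 1.73 to 4.73), Thap1, a zinc finger protein (5.35 to 8.09 against 3.02 to 5.23), and Trim35 (133 to 186 against 101 to 131). Lower in TG were Pcp4l1 (92.0 to 129 against 133 to 202 CPM) and A530016L24Rik (21.7 to 33.9 against 42.7 to 64.7). Trim35 and A530016L24Rik fall outside the naming rule and were chosen after their values were seen.

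Within TG groups, 2 of these other 8 genes tracked Tnnt2, against 3.84% of all genes. Thap1 had a slope of 0.61 ± 0.16 (SE, edgeR adjusted p 0.0222; 0.74 and 0.0475 without the trained TG male of replicate 4), in the direction of its genotype difference. A530016L24Rik, which was lower in TG, had a positive slope of 0.54 ± 0.15 (0.0379; 0.42 and 0.297 without that library). Myl1, which was higher in every TG library, had a slope of -0.85 ± 0.34 (adjusted p 0.176; -0.16 and 0.921 without it).

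The genes that differed between TG and nTG mice in all 4 comparisons mostly had slopes against the direction of their difference. Of 104 genes higher in TG mice in all 4, 25.0% had a positive slope, and 17 passed with a negative and 2 with a positive slope (2.25% and 1.58% over all genes). Without the trained TG male of replicate 4 these counts were 3 and 1, in a fit that called 34 negative and 20 positive slopes over all 16912 genes. Of 284 genes lower in TG mice in all 4, 81.7% had a positive slope, and 24 passed with a positive and 3 with a negative slope, or 2 and 1 without that library. Over all 16912 genes 52.4% of slopes were positive. Leaving that library out, the shares of positive slopes were 31.7%, 71.1% and 51.8%, and with the fibroblast share as a covariate 34.6%, 70.8% and 50.0%. The genotype comparisons and the slopes use the same TG libraries, and these shares are given as a description with no test.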

How the data were processed

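Hearts of 64 mice in 8 groups (genotype, training, sex) were profiled by bulk RNA sequencing after rRNA depletion, per the labels' protocols. The gene table deposited by the authors holds whole-number counts for 16913 genes, named by Ensembl identifier; GENCODE M21 matched 16879 of them to symbols. The lncRNA table deposited by the authors holds expected counts for 3787 transcripts, of which 45 had fractional values; they were rounded. The submitters' processing notes list cutadapt 2.3, FastQC 0.11.8, STAR 2.7.8a, RSEM 1.3.3, MultiQC 1.7 and the builds GRCm38 and mm10, without roles; whether counting used strand is not given in the sources used here.

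Gene columns were given to libraries by Pearson's r of centred log2 CPM (pseudocount 0.5) over autosomal transcripts with a mean of at least 20 counts. In a simulated table the match returned 64 of 64 columns. Contrasts and slopes came from quasi-likelihood fits in edgeR (F test, TMM factors), with the Benjamini-Hochberg adjustment over all genes and a threshold of 0.05. Contrasts used a mean for each group; slopes used log2 CPM of Tnnt2 centred within its group, with Tnnt2 left out of the tested genes. Library sizes of the lncRNA fit came from the joined gene column. Residuals are of log2 CPM (prior count 2). Permutation tests drew 100000 resamples, or enumerated all regroupings where called exact. For r and rho the residuals of Tnnt2 were permuted within groups. For the spread, genotype was permuted within sex and training. On simulated counts for 16913 genes with 200 changed, the slope fit recovered 66% at a slope of 1 (6 of 138 calls false) and 81% at a slope of 2 (10 of 172 false). For the genotype comparison in sedentary males 89.5% at 1 log2 unit were recovered (12 of 191 calls false). The simulated counts were drawn independently for each gene and library, with no library that stood apart. These rates may therefore not hold for the slopes in the real libraries.

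The named genes are the 8 genes with a positive and the 8 with a negative slope with the smallest p, up to 4 in each direction for differences of slopes, and up to 5 in each direction by gap among separating genes, each with a mean count of 50 or more and no clone name, plus fixed sarcomere and stress genes. Of the lncRNAs, the 3 with the smallest p are named, without these limits on count and name. Tnnt2, the lists and these rules were chosen with earlier results of these data known, and the exact tests of Tnnt2 alone, the slopes by sex and training as a difference, and several alternatives (the fibroblast share as a covariate, libraries left out by name, both together, and each of the 33 nTG libraries left out in turn) were added after seeing the data. Replicate numbers were checked as pairs: 205 same-numbered pairs of libraries had a mean r of 0.020 in their deviations, with 51 over 0.1, against -0.003 for other pairs. These pairs include males with females, which are numbered in separate runs, so the check cannot exclude a pairing within a sex. Nothing in the labels pairs the samples, and p-values measure the spread between these libraries. Versions were R 4.3.3, edgeR 4.0.16, limma 3.58.1, DESeq2 1.42.0, Python 3.11.15, numpy 2.4.6, scipy 1.17.1 and pandas 2.3.3.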

Additional observations from a re-analysis of the deposited data

Results flagged for a closer look

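Within-group values were screened for a lowest or highest library far from the rest (its gap to the nearest library over the range of the group, against the 95% critical value of Dixon's test). That value is set so that 5% of independent, normal sets would be picked out. The sets screened here share libraries, and CPM and shares were not log-transformed, so 5% is not their chance rate. Of 140 sets of values 30 were picked out. The sets include genes named for their slope on Tnnt2 in the same TG libraries, so the number and its share in a library with low Tnnt2 are partly set by that choice; in the 76 sets not chosen so, 15 were picked out, 6 of them in the trained TG male of replicate 4. Of the 30, 16 were values of the trained TG male of replicate 4. It was lowest for Letm1 (80.7 CPM, others from 91.8), Mhrt (14.0 CPM), Fkbp4 (196 CPM) and Tnni3 (1953 CPM), and highest for Apod (15.5 CPM), Svep1 (160 CPM), Fbln2 (283 CPM), Serping1 (147 CPM), Ahnak2 (102 CPM), Fbln7 (3.10 CPM) and Fetub (7.00 CPM). It was also highest for Myh7 (2671 CPM, others up to 1383), Nppa (472 CPM, others up to 119), Acta1 (689 CPM), Ankrd1 (1423 CPM) and the fibroblast share (0.374% of counts).

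The trained TG female of replicate 3 was highest of its group for the fibroblast share (0.307%), the blood cell share (0.0649%), Fbln2 (242 CPM), Serping1 (127 CPM) and Fbln7 (4.63 CPM). The sedentary TG male of replicate 5 was highest for the blood cell share (0.492%) and Apod (16.2 CPM). Other single values were Tnnt2 in the sedentary nTG male of replicate 4 (3589 CPM), the log2 ratio of Tnnt2 to its partners in the trained nTG female of replicate 2 (-0.31), the fibroblast share in the sedentary nTG female of replicate 4 (0.342%) and the trained nTG female of replicate 5 (0.278%), the blood cell share in the sedentary TG female of replicate 2 (0.124%), Mrm3 in the trained TG female of replicate 1 (14.5 CPM) and Tnnt1 in the trained TG male of replicate 3 (2.91 CPM).

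Slopes on Tnnt2 that differed between TG and nTG libraries by a test of the difference were those of Trim7 (2.25), Hr (2.87), Apln (2.96), Prnd (4.42), Papln (2.23), Fmo2 (-2.36) and Corin (-1.64), given as TG minus nTG; 0 passed without the sedentary nTG female of replicate 1, without that of replicate 4 or without the trained nTG female of replicate 2. Of 33 fits without 1 nTG library, 30 called Trim7, Hr and Fmo2, 27 Apln, 15 Prnd, 13 Papln and 10 Corin.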

How the results depend on the processing

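Read by column name instead of by match, the Tnnt2 genotype effects were 0.71, -0.35, 0.76 and 0.024 on the log2 scale (sedentary and trained males, sedentary and trained females), training gave 0.59 in TG females, 1.33 in nTG males and 1.33 in nTG females, the sex differences in nTG mice 0.0057 (sedentary) and 0.0049 (trained), and the interaction of genotype with training in males -1.06; 1110 genes tracked Tnnt2 within TG and 596 within nTG groups, 0 slopes differed and 0 genes separated TG from nTG. With joined columns the 4 genotype effects kept direction and call under every alternative run. The sex difference in sedentary TG mice passed with DESeq2 (0.19, adjusted p 0.0447) and as ratio to partners (0.22). Leaving out single libraries, it ranged from 0.16 to 0.23, passing in 4 fits; training in TG males ranged from 0.080 to 0.16, training in TG females from -0.094 to 0.022, and the sex difference in trained TG mice from -0.025 to 0.099. The count of 649 tracking genes ranged from 54 to 791 without single libraries and was 58 without the 2 libraries farthest from their group median, 402 with Tnnt2 as linear CPM above the nTG mean, 101 with the ratio to partners, 84, 23 and 5 with the mitochondrially encoded, blood cell and fibroblast shares as covariates, 2 with the fibroblast share and without the trained TG male of replicate 4, 22 in sedentary, 0 in trained, 1129 in male and 2 in female mice alone, and 21 in males without that library. DESeq2 gave 961 in TG and 326 in nTG libraries and 27 slopes that differed; median-of-ratios size factors gave 617, 79 and 4. Without single libraries 0 to 244 genes tracked Tnnt2 within nTG groups and 0 to 19 slopes differed; both counts were 0 without the 3 nTG females with Tnnt2 farthest below their group mean. The replicate number as a block left 112, 28 and 4, and moved training in TG females to 0.0075. Whether the numbers stand for a pairing within a sex was not tested. For lncRNAs the count of 0 became 1 with the replicate block, 1 with DESeq2 and 4 with no filter on low counts. Slopes not past the threshold that changed sign were those of Tnnt1 (0.077), Tpm1 (-0.028) and Acta1 (0.53) with the fibroblast share, and Tpm1 (-0.085) with the ratio; the cause was not tested. Depth does not limit Tnnt2 itself.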
